A study of Rattus norvegicus with 16 samples.

Results

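The 10 genes of the smooth muscle contractile apparatus described here were Acta2, Actg2, Myh11, Myl9, Mylk, Cnn1, Smtn, Tagln, Lmod1 and Des. They were taken by symbol, through the RefSeq accession that the array's annotation gives for each probe, and not by their values. All 10 genes were on the array, with 15 probes, and all 15 probes passed the filter on dim signal, among 11592 genes and 21808 probes that did so. The tissue was EWAT (epididymal white adipose tissue), which lies beside the epididymis, from male rats that had free access to food and were 30 days old at death. The HFT group (8 animals) were pups whose dams were given a high-fat diet while pregnant and nursing, with 25 mg per kg body weight of GSPE, a grape seed procyanidin extract, each day in low-fat condensed milk. The HF group (8 animals) were pups whose dams had the same diet with the milk alone, so the diet is shared by both groups. The pups ate their dams' diet until they were killed. The treatment was given to the dams, and which pups shared a dam is not in the labels, so the p-values treat littermates as independent animals.

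Each animal gave 1 total RNA sample and 1 Agilent array (1 colour, 62976 spots), 16 arrays on 4 slides in all. Arrays are named by group and animal number, such as HF 9. A level is the log2 signal of a probe minus the 75th percentile of its array, so a value of 0 lies at that percentile, and levels are compared between arrays for the same probe only. The 75th percentile of signal ran from 753 (HF 10) to 1366 (HFT 28). Precision depends on the number of animals per group and on which of them shared a dam, which the labels do not give. Adipocyte markers were present on every array: Adipoq, the adipocyte hormone adiponectin, averaged 6.85 in HFT and 6.83 in HF. Some arrays stood apart. On HFT 22, HFT 24 and HF 35 the median of a urothelial list exceeded the median array by 5.44, 7.49 and 6.98 log2 units. On HFT 23, HFT 28 and HF 8 the median of an epididymal list exceeded it by 1.21, 2.48 and 1.22 units, and by 5.86, 6.32 and 6.15 units over the kept genes of that list other than Ces5a and Wfdc10a, a subset chosen after the values were seen. HF 9 was at -0.022 for the whole epididymal list, 0.22 for its subset and 0.092 for the urothelial genes. It was still the highest array for 3 of the 7 kept epididymal genes, among them Ces5a and Wfdc10a, which the subset leaves out. HF 9 also stood apart in the muscle genes described here.

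Smooth muscle cells shorten when Mylk, the calcium- and calmodulin-activated light chain kinase, phosphorylates the regulatory light chain Myl9 and lets the myosin heavy chain Myh11 pull on actin filaments built of Acta2 and Actg2. Acta2 is the actin of vascular smooth muscle, and Actg2 the actin of visceral muscle such as the gut, bladder and genital ducts. In a fat pad such cells lie in the walls of arteries and arterioles, while the epididymal duct and the vas deferens beside the pad have muscular walls of their own. Many of these genes are switched on by serum response factor (Srf) and its partner myocardin (Myocd), which act through the CArG box.

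A stretch around the transcription start was listed for 6 of the 10 genes in the RefSeq promoter table (Smtn, Acta2, Des, Cnn1, Mylk and Actg2), 250 bases before to 50 after the start. Both strands were searched for the CArG box, and for a looser form with 1 G or C allowed in its A and T core. The strict box was in 0 of these 6 windows and in 1.64% of all 33469 windows. The looser form was in 1 of the 6 and in 8.10% of all. That window belongs to Acta2 and is shown because it holds 2 matches, which begin 134 and 84 bases before the start. It lies at chr1:241172454-241172753 (GRCr8, minus strand), and the matches are in capitals.
Acta2: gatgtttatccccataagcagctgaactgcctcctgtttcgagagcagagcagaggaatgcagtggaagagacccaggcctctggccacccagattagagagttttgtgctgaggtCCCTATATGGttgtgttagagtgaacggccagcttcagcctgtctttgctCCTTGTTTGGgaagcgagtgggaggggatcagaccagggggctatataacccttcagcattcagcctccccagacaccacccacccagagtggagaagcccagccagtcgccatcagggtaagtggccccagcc
No match says only that these letters are not in the window, and whether the matches in Acta2 bear on its level was not tested.

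The question of the comparison was whether EWAT of pups of GSPE-treated dams differed from that of pups of vehicle-treated dams. All 10 contractile genes were lower on average in HFT than in HF, and for none did the difference pass the test. The fitted differences ran from -0.86 (Lmod1) to -0.45 (Smtn) on the log2 scale, with a median of -0.58 against -0.016 over all probes tested. No member passed an adjusted p of 0.05 by limma, and neither did any of the 21808 probes (0%). At an unadjusted p of 0.05 the count was 0 of 10 members, against 2.36% of all probes (1.23% lower in HFT). Differences below 0 were found for 56.2% of all probes, and the groups overlapped for every member and every probe (0% without overlap). Lmod1 had the smallest unadjusted limma p of the members, 0.0704. Every member's adjusted p was 0.999994.

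The difference lay largely in 1 HF animal. HF 9 had the highest level of all 16 arrays for 10 of 10 genes and 15 of 15 probes, whereas it was the highest array for 9.86% of all probes. It lay 1.46 to 3.74 log2 units above the next array. A gap of at least 1 unit was found for 10 of 10 members and for 1.16% of all probes. Against the median of the other 15 arrays HF 9 was higher by 2.21 (Smtn) to 7.22 (Cnn1), with a median of 4.17. Without HF 9 the median member difference was -0.091, against -0.014 over all probes, and 7 of 10 members stayed below 0 (55.4% of all probes). Bulk RNA cannot tell more muscle cells from more RNA per cell.

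**Figure D1:**
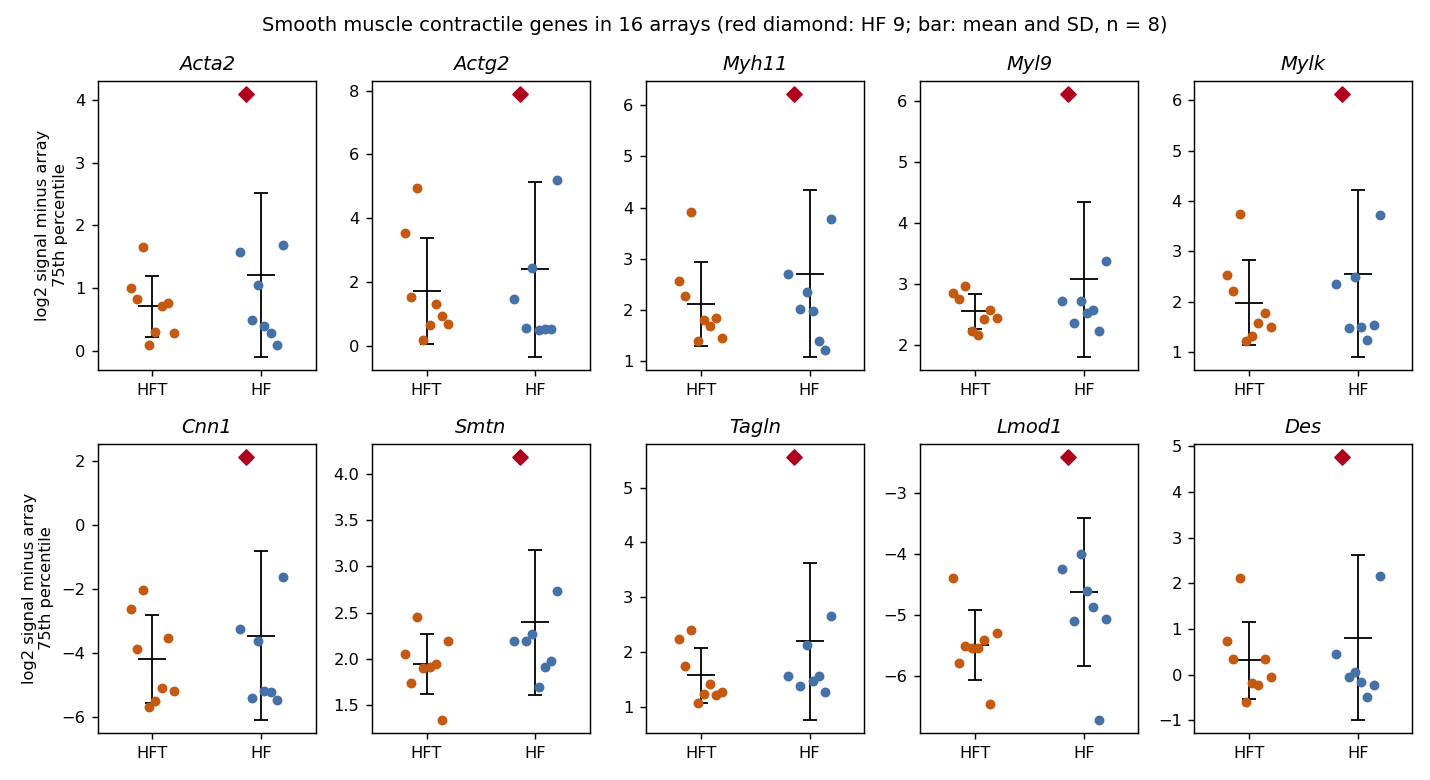
Levels of the 10 genes on the 16 arrays (vertical axes, log2 signal minus the array's 75th percentile, a scale of its own for each gene), HFT at the left and HF at the right. Points are animals, bars the mean and SD of 8 animals, and the red diamond is HF 9, which is the highest point in all 10 panels.

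Among the thin-filament actins, Actg2 had the widest range. Its level in HFT ran from 0.17 over a median of 1.12 to 4.96, and in HF from 0.50 over a median of 1.01 to 7.89. The high arrays were HF 9 (7.89), HF 35 (5.20), HFT 24 (4.96) and HFT 22 (3.54), and the next, HF 11, was at 2.44. The groups overlapped, and their medians lay closer together than their means, 1.72 ± 1.66 in HFT and 2.39 ± 2.75 in HF (SD, n = 8 each). The difference was -0.67 (SE 1.06), and its sign turned to 0.12 (SE 0.82) without HF 9. The other Actg2 probe gave -0.69 and tracked the first across arrays (r = 0.9996 over 16 arrays).

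Acta2 varied less. It had a lowest, median and highest level of 0.10, 0.74 and 1.65 in HFT, against 0.095, 0.77 and 4.10 in HF. HF 9 stood alone at 4.10, and HF 35 (1.69), HFT 24 (1.65) and HF 8 (1.57) followed close to each other. The medians of the groups were nearly level. The difference of -0.50 (SE 0.46) became -0.090 (SE 0.28) without HF 9. HF 9 exceeded the median of the other arrays by 6.95 for Actg2 and by 3.39 for Acta2.

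The motor proteins were high on the same few arrays. Myh11, the myosin heavy chain, ran from 1.39 over 1.82 to 3.90 in HFT and from 1.21 over 2.18 to 6.22 in HF. HF 9 was highest, HFT 24 (3.90) and HF 35 (3.79) lay together behind it, and HF 8 (2.70) came next. The Myh11 difference was -0.59 (SE 0.60), and -0.092 (SE 0.41) without HF 9. Myl9, the regulatory light chain, had 2.16, 2.50 and 2.96 as its lowest, median and highest level in HFT, against 2.22, 2.64 and 6.11 in HF. Apart from HF 9 (6.11) and HF 35 (3.37), all Myl9 levels lay within 2.16 to 2.96. Its difference was -0.53 (SE 0.43), and -0.093 (SE 0.16) without HF 9.

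Mylk, the kinase of that light chain, ran from 1.21 over 1.67 to 3.74 in HFT and from 1.24 over 1.95 to 6.12 in HF. HFT 24 (3.74) and HF 35 (3.72) were again a near-equal pair below HF 9, and the groups overlapped. The Mylk difference was -0.57 (SE 0.61), and -0.062 (SE 0.41) without HF 9. A further Mylk probe gave -0.69 and correlated with the first at r = 0.99.

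Of the actin-binding regulators, Cnn1 had the largest excess on HF 9. Cnn1 encodes calponin, which binds actin and slows the myosin ATPase. Its level ran from -5.67 over -4.47 to -2.03 in HFT and from -5.46 over -4.40 to 2.13 in HF. HF 9 (2.13) lay 3.74 units above HF 35 (-1.61), the widest such gap among the members, and HFT 24 (-2.03) and HFT 22 (-2.62) followed. The difference was -0.74 (SE 0.98), and the sign turned to 0.061 (SE 0.68) without HF 9. Tagln, transgelin (SM22), a marker of smooth muscle that binds actin, had 1.07, 1.33 and 2.40 in HFT, against 1.26, 1.56 and 5.56 in HF as lowest, median and highest level. HF 9, HF 35 (2.66), HFT 24 (2.40), HFT 22 (2.24) and HF 11 (2.12) were the high arrays for Tagln. Its difference was -0.63 (SE 0.50), and -0.15 (SE 0.25) without HF 9.

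Smtn, smoothelin, found in contractile smooth muscle, had the smallest excess on HF 9. It ran from 1.34 over 1.93 to 2.45 in HFT and from 1.69 over 2.19 to 4.19 in HF. Apart from HF 9 (4.19) and HF 35 (2.73) the arrays of both groups were mixed in order, with HFT 28 (1.34) the lowest. The difference was -0.45 (SE 0.28) and stayed at -0.20 (SE 0.16) without HF 9, with the other Smtn probe at -0.56 over all arrays.

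Lmod1, leiomodin, a protein that nucleates actin filaments, had 2 probes that ordered the arrays differently. On the brighter probe its level ran from -6.46 over -5.52 to -4.39 in HFT and from -6.71 over -4.74 to -2.41 in HF. HF 9 (-2.41) was highest, but HF 11 (-4.00), HF 8 (-4.25) and HFT 22 (-4.39) followed it, and HF 35 (-5.07) and HFT 24 (-5.50) were not among the high arrays. On the further probe HF 9 (-3.16), HF 35 (-4.40), HFT 24 (-5.35) and HFT 22 (-5.39) were the highest, as for most other members. On the brighter probe the difference was -0.86 (SE 0.44), and -0.54 (SE 0.35) without HF 9, with an unadjusted limma p of 0.145 there. The further probe gave -0.35 (SE 0.43), and -0.020 (SE 0.31) without HF 9. Its 2 probes did not track each other beyond HF 9: r was 0.55 over 16 arrays and 0.074 over 15. That further probe was well above background on 7 of 8 arrays of each group.

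Des encodes desmin, the intermediate filament that ties the contractile lattice together in all kinds of muscle. Its level ran from -0.59 over 0.14 to 2.11 in HFT and from -0.50 over 0.00039 to 4.76 in HF. HF 9 (4.76), HF 35 (2.16) and HFT 24 (2.11) were high, and all others lay at or below 0.74 (HFT 22). The groups overlapped, and the HFT median was the higher. The difference was -0.50 (SE 0.66), and its sign turned to 0.066 (SE 0.42) without HF 9.

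**Figure D2:**
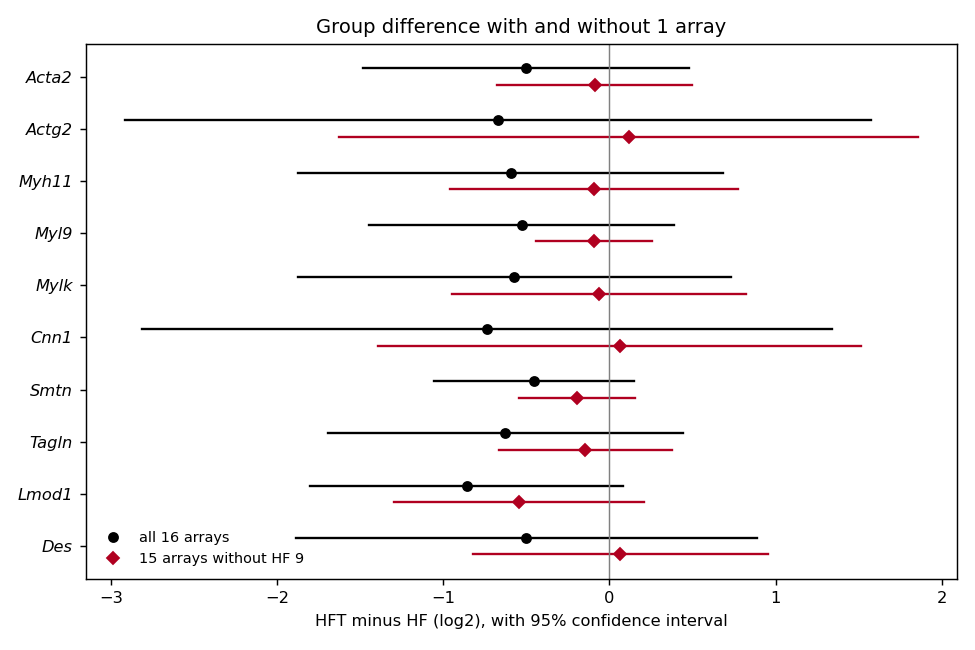
Fitted difference of each gene, HFT minus HF (horizontal axis, log2), with its 95% confidence interval, over all 16 arrays (black circles) and over 15 arrays without HF 9 (red diamonds). Every interval crosses 0, the 10 black points lie below 0, and the red points of Des, Cnn1 and Actg2 lie above it.

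Each slide held 2 HFT and 2 HF arrays, and positions 3 and 4 of each slide held HFT and positions 1 and 2 HF, so position and group cannot be told apart. Within slides the mean member difference was -1.90 on slide 1, which holds HF 9, then 0.26 on slide 2, -0.0016 on slide 3 and -0.77 on slide 4. The sign thus differed between slides. Slide 4 holds HF 35, the array next to HF 9 for 7 of the 10 genes. HFT 24 was next for 2 genes (Myh11 and Mylk) and HF 11 for Lmod1.

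The members varied together across animals. Over the 45 pairs of genes, Pearson's r across the 16 arrays ran from 0.59 (Lmod1 with Des) to 0.98 (Des with Mylk), with a median of 0.93. All 45 pairs had an adjusted p under 0.05 by two-sided permutation (100000 resamples, Benjamini-Hochberg over the 45 pairs), the largest being 0.029. Spearman's rho had a median of 0.83, and 39 pairs passed. Pearson's r was higher with HF 9 than without it for 42 of the 45 pairs.

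Without HF 9 the median r was 0.87 and 35 of 45 pairs passed, and the median rho was 0.80 with 29 pairs. Leaving out the 2 arrays farthest from the median of the first gene of each pair gave a median r of 0.81 with 28 pairs. Within the 8 HFT arrays the median r was 0.88 and 28 pairs had an exact permutation adjusted p under 0.05, with a median rho of 0.83 (27 pairs). Within the 7 HF arrays other than HF 9 it was 0.89 with 34 pairs by the exact test, with a median rho of 0.75 (7 pairs). With slide means removed the median was 0.92. High correlations were thus found in each group on its own and without HF 9.

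Without HF 9 and without the 6 arrays high for urothelial or epididymal genes, 9 arrays remained and the median r was 0.67. Mylk, Actg2, Cnn1 and Myh11 were the most tightly linked members, with a median r to the others of 0.92, 0.92, 0.91 and 0.90 without HF 9. Smtn (0.62) and Lmod1 (0.31, on its brighter probe) were the loosest. For Lmod1, 0 of its 9 pairs passed without HF 9.

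**Figure D3:**
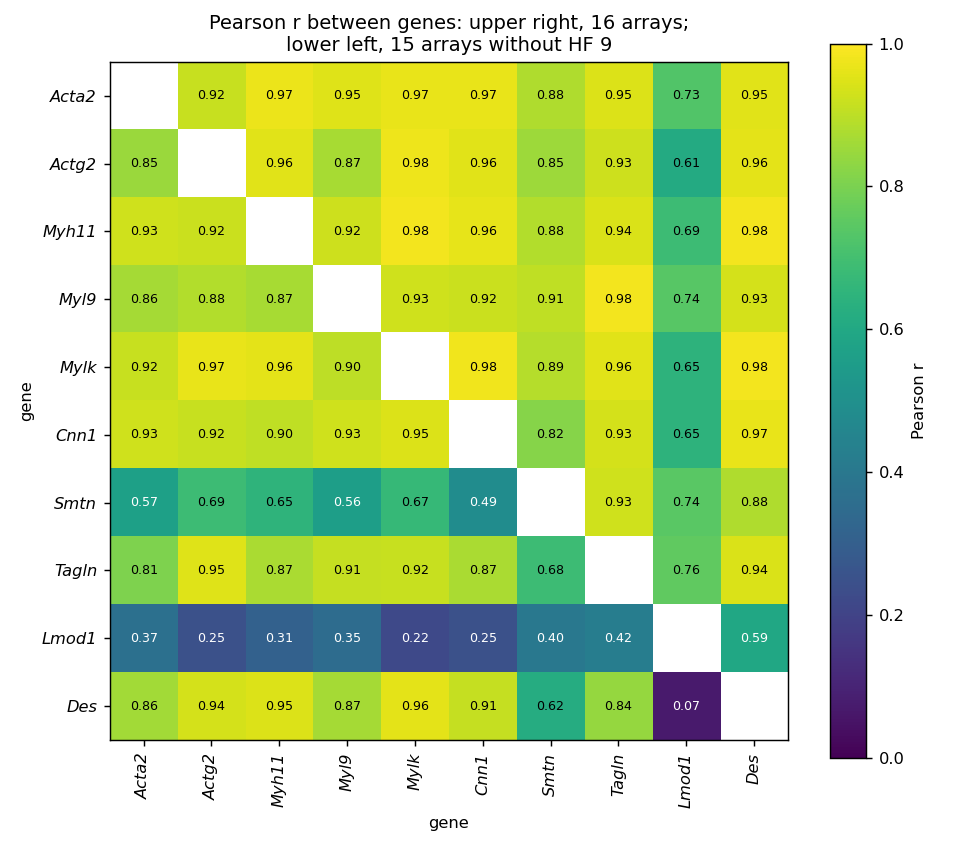
Pearson's r between the levels of the 10 genes across arrays, from 16 arrays in the upper right and from 15 arrays without HF 9 in the lower left. The lower left stays high for most pairs and drops in the row of Lmod1 (0.074 with Des) and in that of Smtn.

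Ces5a, a carboxylesterase known from the epididymis, and Epcam, the adhesion molecule of epithelial cells, were set beside the members as signs of a duct wall. Both fell into separate clusters of arrays, so no correlation over all arrays is given. The level of Ces5a was between -0.41 and 3.68 on 5 arrays, HFT 23, HFT 24, HFT 28, HF 8 and HF 9, and between -8.17 and -3.46 on the other 11. HF 9 had the highest level of all, 3.68. Among the others, the order in Ces5a was not that of Actg2. HFT 28 (2.08) and HF 8 (1.89) came next in Ces5a and had Actg2 at 0.94 and 1.46. HF 35, next to HF 9 in Actg2 at 5.20, had Ces5a at -7.49. In Acta2, however, HF 8 (1.57) lay close behind HF 35 (1.69) and HFT 24 (1.65).

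Within the 11 arrays low in Ces5a, r between Ces5a and the members ran from -0.14 (Des) to 0.24 (Lmod1), with a median of -0.048. Spearman's rho ran from 0.19 to 0.59 with a median of 0.38. By permutation, with adjustment over the 10 members, 0 passed, and the smallest adjusted p was 0.997 for r and 0.462 for rho. Leaving out HFT 27 and HF 10, the arrays farthest from the median of Ces5a, moved the median r to 0.26 and that of Lmod1 to 0.87. The 5 arrays high in Ces5a, HF 9 among them, are too few for a correlation. The test within the low arrays cannot show whether the members differ between arrays low and high in Ces5a. Levels on the low arrays went down to -8.17, at the dim end of the signal. Values there may reflect background and array scaling, which was not tested.

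Epcam was high on 8 arrays, from -4.22 (HFT 27) to 1.46 (HFT 28), and lay between -8.91 and -8.31 on the other 8. HF 9 was at -1.02, seventh among the 8 high arrays, although it was the highest in all 10 members. The 4 arrays of highest Actg2 (HF 9, HF 35, HFT 24 and HFT 22) were all among the 8, and so were HFT 23, HFT 27, HFT 28 and HF 8, whose Actg2 levels lay between 0.94 and 1.52. On the 8 arrays low in Epcam, Actg2 lay between 0.17 (HFT 25) and 0.68 (HFT 36), apart from HF 11 at 2.44. The clusters thus differed in Actg2, which values within a cluster do not show. Within the 8 high arrays the median r with the members was 0.0023, and within the 8 low arrays it was 0.43. The median rho was -0.17 in the high and 0.38 in the low arrays, and 0 of 10 members passed in either cluster by exact permutation (smallest adjusted p 0.996 and 0.404 for r). Without the 2 farthest arrays the median r was -0.30 in the high and 0.64 in the low arrays. Levels of -8.91 to -8.31 are at the dim end of the signal. Values within the low arrays may therefore reflect background and array scaling, which was not tested.

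Krt15, a keratin of basal epithelial cells, was high on the same 4 arrays as Actg2. It stood at 0.36 on HFT 22, 1.11 on HFT 24, 0.43 on HF 9 and 1.48 on HF 35, and between -6.63 and -4.21 on the other 12. On 3 of these arrays, HFT 22, HFT 24 and HF 35, Upk1a, a uroplakin of the urothelium, stood at 2.66, 4.29 and 4.17. On HF 9 it was at -3.87, within the range of the other 12 arrays.

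HF 9 also differed from the arrays high in epididymal genes. Wfdc10a, a protein of the WAP family, was highest on HF 9 at 4.08, and HF 8 (1.90) and HFT 28 (1.76) were next. Spink8, a protease inhibitor of the epididymal list, was likewise highest on HF 9 (3.55, next 1.78 on HFT 28). Lcn5, an epididymal lipocalin, was at -4.98 on HF 9, against 3.42 on HFT 23, 4.12 on HFT 28 and 4.12 on HF 8. Of the 21 genes of the epididymal list 7 had a kept probe, and HF 9 was the highest array for 3 of them (Ces5a, Wfdc10a and Spink8). Mean levels over these 7 ran from -4.44 to 1.497 in HFT and from -4.18 to 1.43 in HF, with HF 9 at -0.24. Their part in the muscle difference was not tested.

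**Figure D4:**
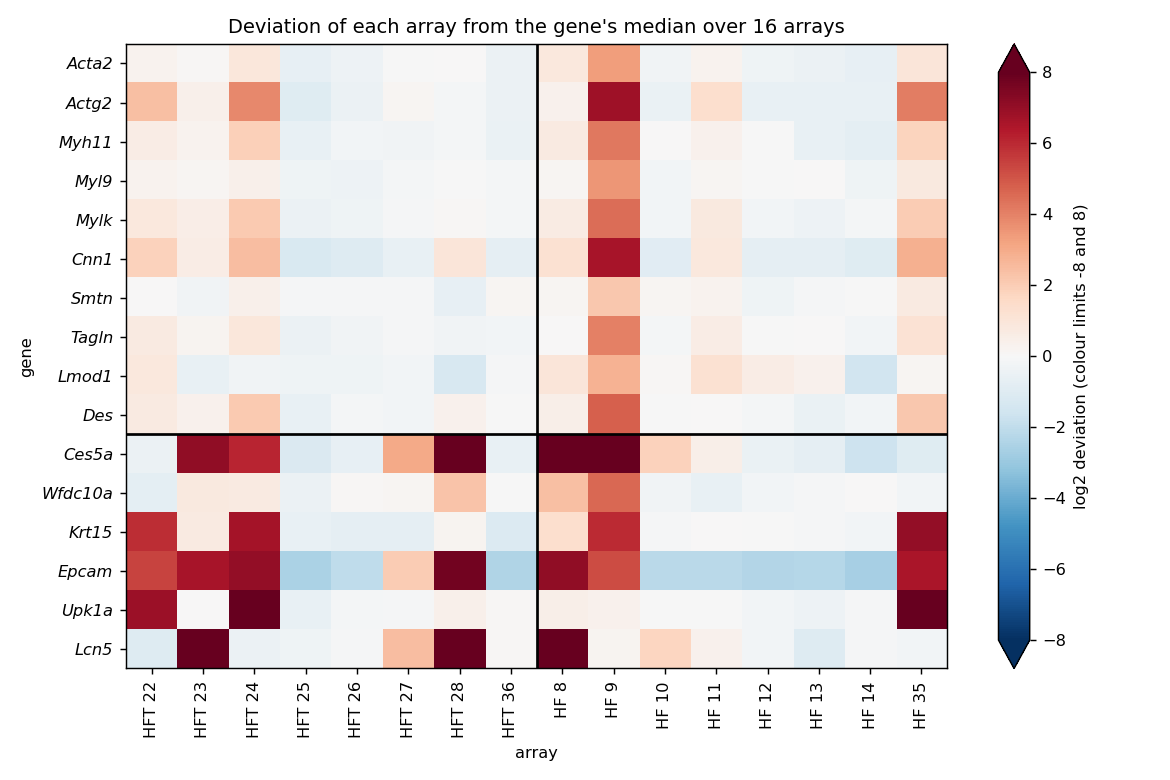
Deviation of each array from the gene's median over 16 arrays (colour, log2), for the 10 contractile genes above the horizontal line and 6 epithelial genes below it, with HFT arrays at the left and HF arrays at the right. HF 9 is high in all 10 muscle genes and in Ces5a, Wfdc10a, Krt15 and Epcam but not in Upk1a or Lcn5, while HFT 22, HFT 24 and HF 35 pair muscle with Krt15, Epcam and Upk1a.

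Other genes of smooth muscle were read from a list of 44, of which 36 had a probe and 35 a kept one. The difference, HFT minus HF, was below 0 for 33 of the 35 and above it for 2 (Kcnma1 and Rock2). None passed at an adjusted or unadjusted p of 0.05, and the median difference was -0.27, or -0.078 without HF 9. HF 9 was the highest array for 22 of the 35, or 62.9%. The 15 with a gap of at least 1 unit included Myocd, the coactivator (2.58 above the next array), Tpm2, muscle tropomyosin (2.58), Synm, the desmin partner synemin (3.76), and Acta1, the actin of skeletal muscle (6.16). These 4 were chosen after their values were seen. Actc1, the cardiac actin, was at -0.33 on HF 9 and -0.34 in the median of the other arrays.

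The 3 genes of smallest p in that list were Actn1, Gucy1a1 and Srf. Actn1, the cross-linker alpha-actinin, had a difference of -0.35 (SE 0.17). Gucy1a1, a subunit of the nitric oxide receptor, had -0.18 (SE 0.090) and was at -1.89 on HF 9, below HF 10 (-1.59). Srf had -0.23 (SE 0.12) and lay only 0.47 above the next array on HF 9. Myocd differed from Srf in this, with a level on HF 9 that was 3.65 above the median of the other arrays against 0.85 for Srf.

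Pericytes, the mural cells of capillaries that share some of these genes, differed from the contractile genes on HF 9. Of 9 kept genes of their list HF 9 was the highest array for 0, and the median difference was -0.032. Abcc9, a potassium channel subunit, had a difference of -0.28 (SE 0.18), Higd1b 0.15 (SE 0.15) and the receptor Notch3 -0.11 (SE 0.16). HF 9 had the lowest Notch3 of all arrays, -2.84. For endothelium the count was 0 of 10 as well, and the mean level of that list ran from 0.13 to 0.83 in HFT and from 0.47 to 1.0 in HF, with HF 9 at 0.47, the lowest of HF. All 10 endothelial genes had a difference below 0, with a median of -0.20 over 16 arrays and -0.22 without HF 9, and 0 of 10 passed at an adjusted or unadjusted p of 0.05. Their part in the muscle difference was not tested. Mean levels of the pericyte list ran from 0.77 to 1.39 in HFT and from 0.86 to 1.37 in HF, with HF 9 at 0.86, the lowest of HF.

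Among 12 receptors of smooth muscle, 10 had a kept probe and HF 9 was highest for 3 of them. P2rx1, the ATP-gated channel through which sympathetic nerves contract the vas deferens, ran from -5.40 over -4.97 to -4.41 in HFT and from -5.44 over -4.50 to 0.62 in HF. HF 9 (0.62) lay 4.83 above the next array, HF 11 (-4.20), and the difference was -0.93 (SE 0.65). The alpha-1 adrenergic receptors Adra1a and Adra1d had differences of -0.30 (SE 0.17) and -0.20 (SE 0.15). Adra1d was highest on HF 9 (1.33), and Adra1a on HF 35 (-2.61).

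Markers of skeletal muscle were mixed on HF 9. Of 12 listed genes 7 had a kept probe, with mean levels from -4.36 to -1.51 in HFT and from -4.22 to -0.80 in HF, the last being HF 9. HF 9 was the highest array for 4 of the 7 (57.1%, against 9.86% of all probes). Its median excess over the median of the other 15 arrays was 1.66. The creatine kinase Ckm was at 1.76 on HF 9 and -1.81 on the next array, HFT 24. The fast troponin C Tnnc2 was at 4.13 on HF 9 and 3.30 on HFT 24. The fast troponins Tnnt3 (-1.30) and Tnni2 (-2.09) and myoglobin, Mb (-1.53), were not raised on HF 9, where Tnni2 and Mb had their lowest level of all arrays. Their part in the muscle difference was not tested.

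**Figure D5:**
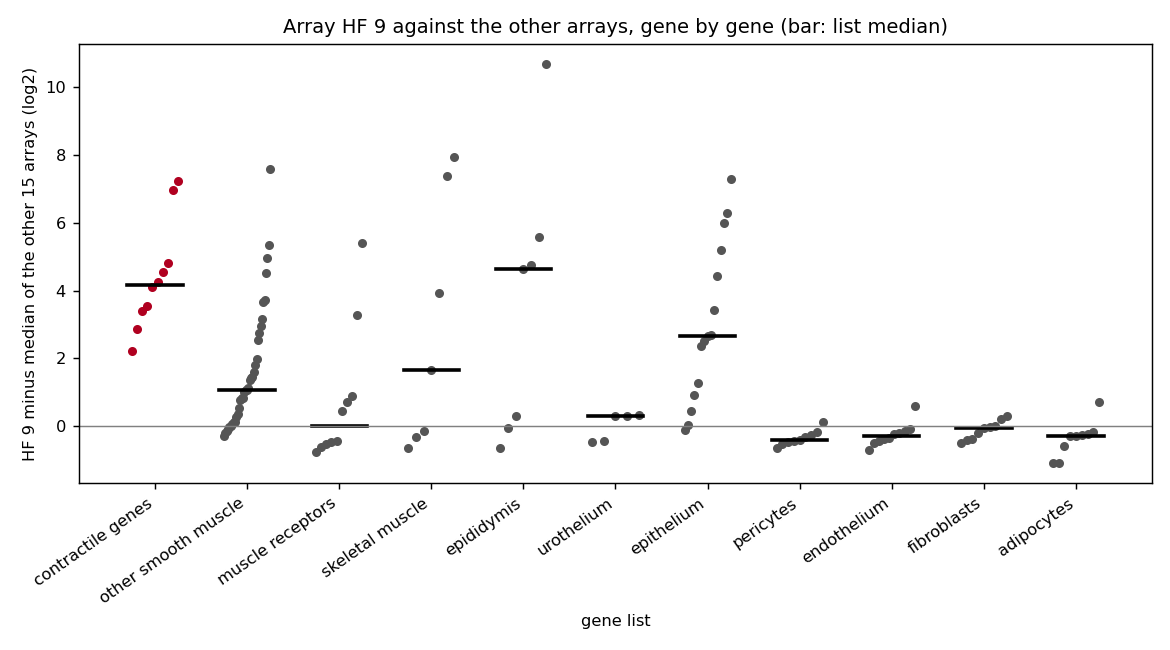
Level on HF 9 minus the median of the other 15 arrays (vertical axis, log2) for each gene with a kept probe, by gene list, with bars at list medians. The contractile genes lie from 2.21 to 7.22, the medians of pericytes, endothelium, fibroblasts and adipocytes lie just below 0, and single genes of other lists reach as high as the contractile genes.

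By Spearman's rho with the mean level of the 10 genes over the 16 arrays, the most alike of the other 11582 genes were Tpm2 (0.99), Nexn (0.95), Cap2 (0.93), Tnnc2 (0.93), Ckm (0.92), Fbxl22 (0.92), Pcp4l1 (0.92) and Asb2 (0.92). Tpm2 is a tropomyosin, Nexn the actin-binding protein nexilin and Cap2 a cyclase-associated actin regulator. Over the 15 arrays without HF 9 the first 4 were the same, followed by Agtr1b (0.91), Tmem184a (0.91), Ckm (0.91) and Fbxl22 (0.91). Agtr1b, an angiotensin II receptor, separated HF 9 from the other arrays high in the muscle genes: it was at -7.98 on HF 9 and highest on HFT 24 at -1.72. These values describe likeness over animals that share the same few high arrays and carry no test.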

How the data were processed

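The authors deposited 1 scanner file per array, with the processed intensity of each spot after Feature Extraction 10.7.3.1 had subtracted background and detrended the array, per the file headers, and no normalization between arrays. A further table deposited by the authors holds log2 values, with no statement of their normalization in the sources used here. Its 16 columns had medians between 7.33 and 7.36 and each matched its own array best. How it was centred is unknown, and it served as an alternative. Here log2 of the processed intensity was taken, and the 75th percentile of all non-control spots of each array was subtracted. Spots flagged non-uniform or outlying for their probe were then dropped, and replicate spots were averaged. Of 30367 probes (62976 spots, 4259 of them controls) 23 lost all spots on an array. Probes well above background in 4 or more of the 8 animals of either group were kept. Symbols came from a RefSeq table (GRCr8) matched by accession without version: 17997 probes were named. The array design is labelled rn4, so gene coordinates are not given.

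HFT was compared with HF by limma 3.58.1 in R 4.3.3 (lmFit and eBayes, no covariate) with Benjamini-Hochberg adjustment over all 21808 kept probes. The probe of a gene is that of highest mean signal. Correlations used two-sided permutation tests (100000 resamples, exact for 8 or fewer arrays) in scipy 1.17.1. The fit and the permutation test were tested on simulated data. Named genes are every member, Ces5a, Epcam, Wfdc10a and Krt15, the 3 genes of smallest p in each of 3 lists (other smooth muscle genes, pericytes, smooth muscle receptors), the 8 genes most alike by rho, with and without HF 9, and defining markers of other cell types. The members and lists were chosen with earlier results of these data known. Alternatives were other background corrections and normalizations, filters, slide as a block, array weights, and arrays left out. A correlation with Ces5a over all arrays was planned and replaced by the value within its 11 low arrays, since the arrays formed separate clusters. The epididymal list as first written marked no array as high (over 3 log2 units above the median array), so its kept probes without Ces5a and Wfdc10a were used, a choice made after seeing the data.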

Additional observations from a re-analysis of the deposited data

Results flagged for a closer look

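Among the 14 genes checked in each group (28 groups of 8 arrays), 5 held an array whose gap to its nearest neighbour, as a share of the group's range, passed Dixon's 95% critical value for 8 samples. Chance flags about 1 in 20 groups. In HF, HF 9 was such a high array for Tagln (0.674), Myl9 (0.703), Smtn (0.584) and Acta2 (0.602). Of all kept probes, 325 (1.49%) had HF 9 as a high array of this kind in HF. In HFT, HFT 24 was such an array for Myh11 (0.533).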

How the results depend on the processing

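Of 290 member values under 29 alternatives, 287 kept their sign and none passed an adjusted limma p of 0.05 (smallest 0.857). The other 3, for Des, Cnn1 and Actg2, turned sign without HF 9. The mean member difference, -0.60 over all arrays, ran from -0.95 to -0.21 over 13 alternatives and from -0.80 (without HFT 24) to -0.098 (without HF 9) when 1 array was left out, so 1 animal moves it more than any change of background correction, normalization or filter. The most negative of the 13, -0.95, came without the arrays high for urothelial or epididymal genes, and -0.21 came when HF 9 was left out as well. Array weights gave -0.37. With 1 array left out, Des ran from -0.76 to 0.066, Cnn1 from -1.04 to 0.061 and Actg2 from -1.13 to 0.12, each lowest without HFT 24. All 10 members stayed below 0 under these 13, and 7 to 10 did so with 1 array left out. The count of probes called was 0 with each array left out, and 1 when the arrays high for epididymal genes were dropped: Acot5, -7.83 in HFT and -3.45 in HF (difference -4.38, SE 0.49, limma adjusted p 0.013), named after its value was seen. The median pairwise r was 0.67 without the arrays high for either list and HF 9, and ran from 0.87 to 0.95 with 1 array left out. The median r with Ces5a in its low arrays was 0.30 without the arrays high for urothelial genes. It was the same without those high for either list, and without both and HF 9, because these settings leave the same low arrays. HF 9 and the arrays high for epididymal genes are not among the 11 low in Ces5a. The median r ran from -0.14 to 0.15 with 1 array left out. The cause was not tested. Array weights gave no correlation, and the slide block none with Ces5a. No paired analysis was possible because the groups share no animal numbers. Of the 15 member probes, only the further Lmod1 probe was not well above background on every array, failing on 1 of each group. The dim members also depended on background correction. With another correction Lmod1 on its brighter probe was at -0.47 (SE 0.20), against -0.86 (SE 0.44), and Cnn1 at -0.66 (SE 0.67), against -0.74 (SE 0.98). Levels of Epcam and Ces5a on their low arrays went down to -8.91 and -8.17, at the dim end of the signal.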
